A study of Homo sapiens with 13 samples.

Results

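The 9 genes described here build and modify heparan sulfate: EXT1, EXT2, GLCE, HS2ST1, HS6ST1, HS3ST1, HS3ST2, HS3ST3A1 and HS3ST3B1. They were chosen by name, as members of a pathway known to be repressed by ZNF263, and with earlier results of these data known. Each was represented by the peaks that reached within 10 kb of 1 transcription start site (TSS) in the hg19 build. Of the 136141 peaks in the 7 deposited lists, 59 did so. The lists came from chromatin immunoprecipitation with sequencing (ChIP-seq) of H1 (WA01) cells, a long-established line of human embryonic stem cells. Wild-type (WT) cells and the clone 1-10, a homozygous ZNF263 knockout (KO) made with Cas9, were each profiled for H3K4me3, H3K27ac and H3K27me3. The FLAG list came from KO cells with ectopic ZNF263-FLAG, so it is labelled as a record of a tagged copy. The labels of the WT libraries for endogenous ZNF263 name the same list, and no source used here says whether their reads entered it. Each histone list stands for 1 library of 1 line, the FLAG list comes with 1 FLAG library, and the KO is 1 clone. No test between genotypes was therefore possible, and no difference has a replicate check.

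Heparan sulfate is a sulfated sugar chain on cell-surface and matrix proteins that binds growth factors such as FGFs and acts as their co-receptor. EXT1 and EXT2 form the polymerase that extends the chain, GLCE converts glucuronic to iduronic acid, and sulfotransferases then add sulfate at defined positions. HS2ST1 acts on the 2-O and HS6ST1 on the 6-O position. The 3-O-sulfotransferases (HS3ST genes) act late, on few sites, and create specific binding sites such as the one for antithrombin made by HS3ST1. ZNF263 is a C2H2 zinc finger protein that recognises purine-rich DNA. H3K4me3 marks promoters, H3K27ac marks active promoters and enhancers, and H3K27me3 is laid down by Polycomb. Promoters with both H3K4me3 and H3K27me3 are called bivalent, although peak lists cannot tell whether both marks sat on the same alleles.

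The promoter sequences of the 4 3-O-sulfotransferase genes are shown first, because these genes shared bivalent marking and ranged from the highest-scoring FLAG peak of the 9 genes to none. Each is the RefSeq window of 250 bases upstream of the annotated start, in the GRCh38.p14 build and read 5′ to 3′ on the gene's strand. HS3ST1 lies at chr4:11428895-11429144 (minus strand) and HS3ST2 at chr16:22813912-22814161 (plus strand). HS3ST3A1 lies at chr17:13601930-13602179 (minus strand) and HS3ST3B1 at chr17:14300831-14301080 (plus strand). The RefSeq starts belong to another build than the peaks and need not be the same start sites, so peaks were placed only by the hg19 TSS. Capitals mark matches to GGAGGA, the repeated core of the purine-rich ZNF263 motif, or to its reverse complement TCCTCC, and matches were allowed to overlap.
HS3ST1: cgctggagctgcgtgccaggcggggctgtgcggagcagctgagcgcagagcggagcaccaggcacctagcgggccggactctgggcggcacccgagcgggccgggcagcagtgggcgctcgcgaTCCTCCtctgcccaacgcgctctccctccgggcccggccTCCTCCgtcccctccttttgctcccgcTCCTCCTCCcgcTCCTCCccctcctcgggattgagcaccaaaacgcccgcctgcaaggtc
HS3ST2: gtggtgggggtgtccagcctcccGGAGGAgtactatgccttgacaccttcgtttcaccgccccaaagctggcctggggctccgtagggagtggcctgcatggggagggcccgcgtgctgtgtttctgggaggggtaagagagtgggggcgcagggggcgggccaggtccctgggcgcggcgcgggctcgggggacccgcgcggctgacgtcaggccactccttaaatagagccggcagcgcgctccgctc
HS3ST3A1: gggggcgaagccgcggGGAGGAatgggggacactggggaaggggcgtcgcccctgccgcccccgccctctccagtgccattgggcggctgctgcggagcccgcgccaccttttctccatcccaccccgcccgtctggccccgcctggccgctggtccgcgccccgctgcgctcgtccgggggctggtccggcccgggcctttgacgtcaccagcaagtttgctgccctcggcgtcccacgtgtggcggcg
HS3ST3B1: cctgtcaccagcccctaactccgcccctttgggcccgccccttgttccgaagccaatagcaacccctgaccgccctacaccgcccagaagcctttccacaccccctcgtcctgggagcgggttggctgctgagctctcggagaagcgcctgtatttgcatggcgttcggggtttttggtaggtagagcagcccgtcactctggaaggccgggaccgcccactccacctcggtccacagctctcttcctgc

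HS3ST1 stood apart in this window, with 5 matches, all in the TCCTCC direction and 4 of them when overlaps were not counted. Of all 35116 RefSeq windows of the same length, 31.8% held at least 1 match and 0.669% held 5 or more. HS3ST2 and HS3ST3A1 had 1 match each, and HS3ST3B1 had none. The table held 8 of the 9 genes, with 3 starts for EXT2, and 4 genes had a match. EXT2 had 1 match at the first start and 2 at each of the other two, whose windows overlap almost wholly, while HS6ST1, HS2ST1 and GLCE had none. The HS3ST1 window was 73.2% G and C and the HS6ST1 window 80.4%, against a median of 58.0% over all windows. A match is a description of the letters and not a measured site. HS3ST3B1, HS6ST1, HS2ST1 and GLCE had FLAG peaks over the TSS with no match in this window, and HS3ST3A1 had a match and no FLAG peak.

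**Figure D1:**
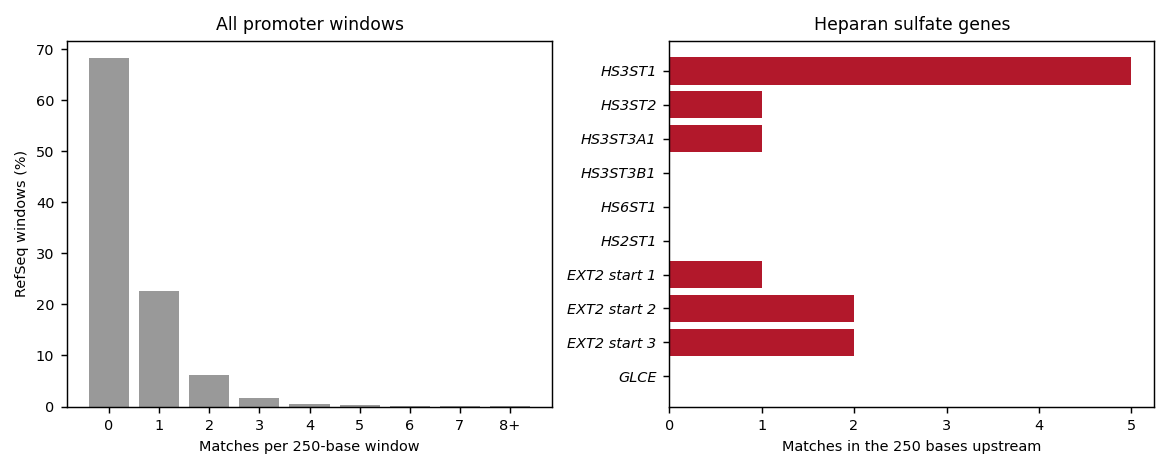
Left, share of the 35116 RefSeq promoter windows (percent) by number of motif matches per 250 bases; right, matches in each window of the heparan sulfate genes, with EXT2 shown once per RefSeq start. HS3ST1 had 5 matches and the other windows 0 to 2.

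FLAG peaks were found at 8 of the 9 genes, and in all 8 a FLAG peak covered the TSS itself. HS3ST3A1 was the gene without one. For a background, the same call was made at the centres of the 28660 WT H3K4me3 peaks, which stand in for promoters because no hg19 gene annotation was used. There, 50.7% had a FLAG peak within 10 kb (Wilson 95% interval 50.2 to 51.3, covering the counting of peaks only). Among the autosomal peaks in the upper 50% of that list by score, called strong WT H3K4me3 peaks below, the share was 67.1%. Taken by direct overlap, 8 of the 9 WT H3K4me3 peaks over the TSS touched a FLAG peak, against 39.3% of all WT H3K4me3 peaks and 60.5% of the strong ones. A wider peak can touch more, and neither background was matched for width. The peaks over a TSS ran from 3207 bp (HS3ST2) to 9289 bp (HS3ST3B1), with EXT2 at 2476 bp. The median over all WT H3K4me3 peaks was 2499 bp. The 9 genes were chosen for their known link to ZNF263 and with earlier results of these data known, so their count is given as a description.

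The strength of the FLAG peaks ranged from the top of the list to below its middle. The scores are the authors' own, are used only to rank peaks within 1 list, and have a scale that no source used here gives. HS3ST1 had the strongest, at chromosome 4, 11428349 to 11431278, with a score of 660 that only 1.22% of the 22966 FLAG peaks equalled or exceeded. This peak reached from 741 bp upstream to 2188 bp downstream of the TSS. The FLAG peak of HS6ST1, at chromosome 2, 129071709 to 129081109, had a score of 434 (top 3.80%) and was 9401 bp wide. Only 0.222% of FLAG peaks were as wide, and the median width was 1985 bp. HS2ST1 followed with 241, in a peak at chromosome 1, 87379934 to 87381974, and HS3ST3B1 with 240, at chromosome 17, 14203334 to 14207859, both in the top 12.4%. HS3ST3B1 had another FLAG peak upstream, at 14199621 to 14202660, with a score of 144. EXT2 (161, at chromosome 11, 44116539 to 44118489) and HS3ST2 (148, at chromosome 16, 22824053 to 22827265) lay in the upper part of the list, at 22.8% and 25.8%. The weakest were EXT1 (87.1) and GLCE (66.2), close to and below the list median of 86.7.

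The absence at HS3ST3A1 was wide. The nearest FLAG peak lay 467 kb away on one side and the next 811 kb away on the other. The deposited FLAG list has been filtered, since some peak numbers are missing from it, but none was missing between these flanking peaks. By this numbering no FLAG peak had been removed from the interval after calling. HS3ST3A1 and HS3ST3B1 are neighbouring paralogues on chromosome 17 with near-identical catalytic parts, and the sources used here do not say how reads that map to both were treated. Whether this bears on the missing peak was not tested.

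**Figure D2:**
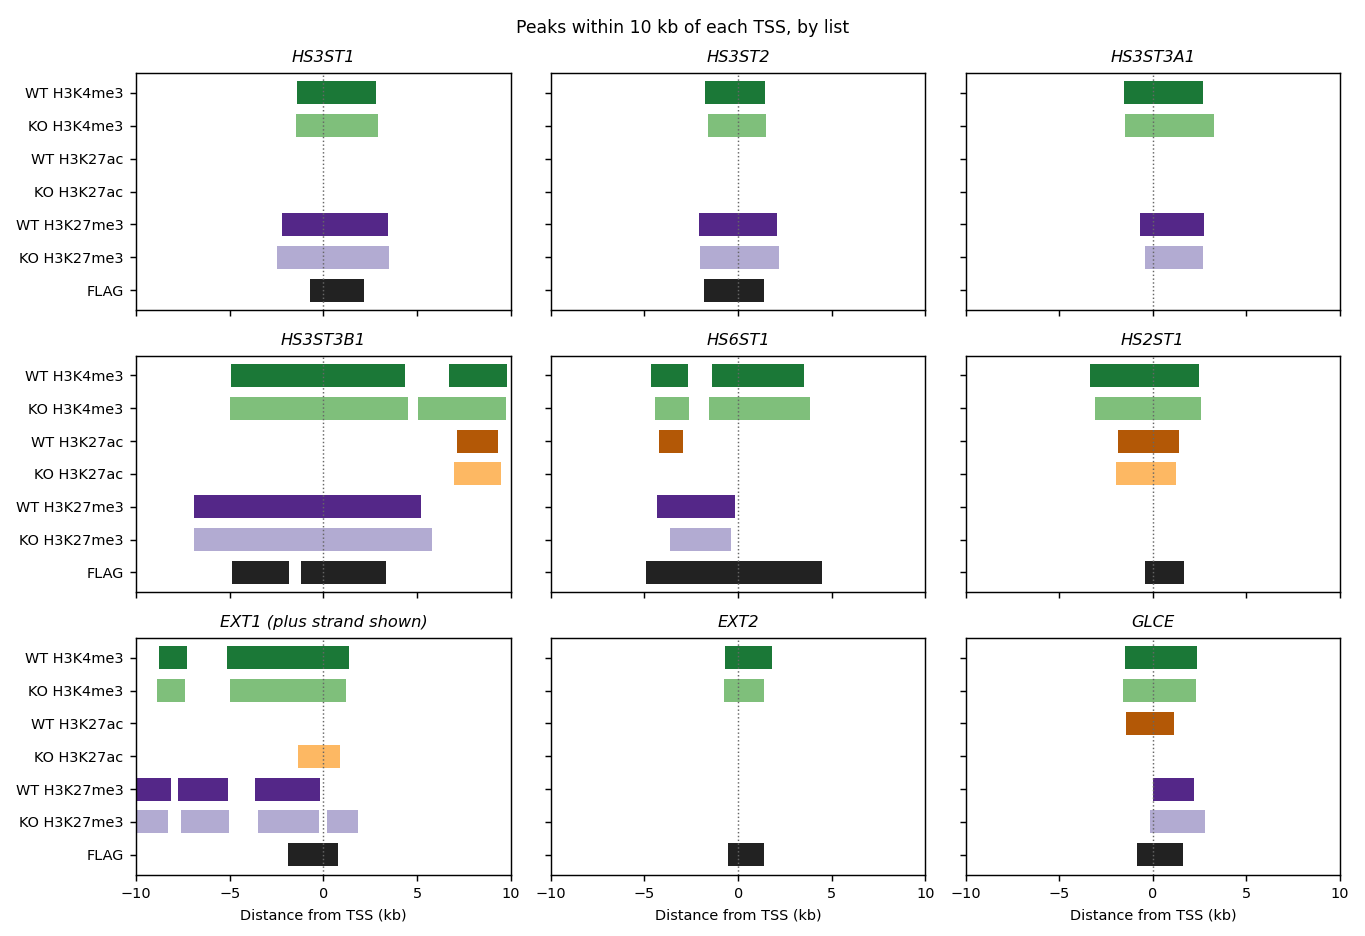
Peaks of the 7 lists (rows) drawn as bars by distance from the TSS in kb, cut off at 10 kb either side; negative distances are upstream by the RefSeq strand, except for EXT1, which is drawn in plus-strand direction. FLAG bars cross the TSS in every panel but that of HS3ST3A1, and H3K27ac bars are absent near the TSS of all 4 HS3ST genes.

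**Figure D3:**
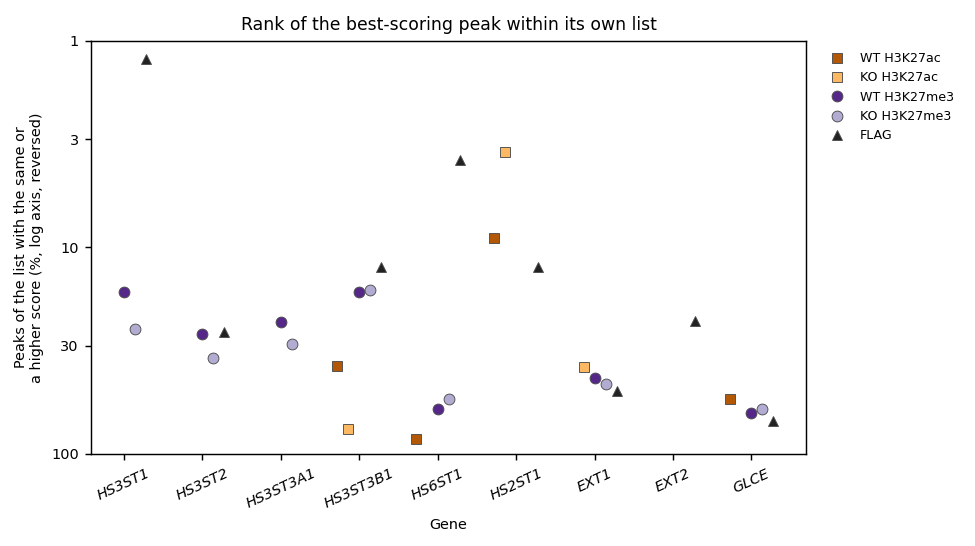
For each gene and each H3K27ac, H3K27me3 and FLAG list, the rank of the best-scoring peak within 10 kb. It is the percent of peaks in that list with the same or a higher score (log axis, reversed so that strong peaks are high). The H3K4me3 lists are left out, because the peaks over a TSS score at the ceiling. HS3ST1 led for FLAG at 1.22% and HS2ST1 for H3K27ac; ranks from lists of different length do not show a change between genotypes.

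H3K4me3 covered the TSS of all 9 genes in both genotypes, and no gene lost or gained it. At the centres of WT H3K4me3 peaks, 91.4% had a KO H3K4me3 peak within 10 kb. In both genotypes the 9 peaks over a TSS had scores at the ceiling of 3100, which 42.9% of WT and 41.9% of KO peaks reach, so they cannot be ranked. Every one of the 12 WT peaks overlapped a KO peak, and every one of the 12 KO peaks overlapped a WT peak. In the whole lists, 24423 of the 28660 WT peaks and as many of the 27126 KO peaks were shared one to one. That number leaves out peaks that overlapped more than 1 peak, so overlap of any kind was at least as common. Overlap at these genes is therefore given as a description. Among the peaks over a TSS HS3ST3B1 had the widest, 9289 bp in WT and 9516 bp in KO, widths reached by 0.820% and 0.752% of the peaks of each list. EXT2 had the narrowest of these 9 peaks, 2476 bp in WT and 2136 bp in KO. Its KO to WT width ratio of 0.863 and that of HS3ST3A1, 1.12, were the extremes among the 9. Over the 24423 H3K4me3 peaks that were shared one to one, the 5th to 95th percentile of this ratio ran from 0.799 to 1.21, so all 9 genes lay inside the range of most peaks.

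H3K27me3 lay within 10 kb of 7 genes in WT and of the same 7 genes in KO: the 4 HS3ST genes, HS6ST1, EXT1 and GLCE. HS2ST1 and EXT2 had none in either genotype. At the centres of WT H3K4me3 peaks 39.1% had a WT and 34.8% a KO H3K27me3 peak within 10 kb. A peak in WT and not in KO was found at 5.45% of them and the opposite at 1.20%, and neither occurred at any of the 9 genes. By direct overlap, 7 of the 9 WT H3K4me3 peaks over a TSS touched WT H3K27me3, against 33.4% of all WT H3K4me3 peaks and 41.1% of the strong ones. As for FLAG, neither background was matched for the width of these mostly wide peaks. The marked genes were thus the late-acting 3-O-sulfotransferases, the 6-O-sulfotransferase, the epimerase and 1 of the 2 polymerase subunits.

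At the 3-O-sulfotransferases H3K4me3 and H3K27me3 both lay over the TSS in WT and KO. At HS3ST1 the whole 4249 bp WT H3K4me3 peak lay inside a 5673 bp H3K27me3 peak at 11427103 to 11432775, and the 4354 bp KO peak lay inside a 5971 bp one. The FLAG peak of HS3ST1 was covered entirely by both marks in both genotypes. The scores of the H3K27me3 peaks were 3100 in WT (top 16.4% of the list) and 1534 in KO (top 25%), values that belong to separate lists and were not compared. HS3ST2, at 22823761 to 22827945, had H3K27me3 over 4185 bp in WT and 4197 bp in KO. HS3ST3A1 had 3404 bp in WT, at chromosome 17, 13502528 to 13505931, and 3078 bp in KO, and there the H3K4me3 peak was the wider mark. HS3ST3B1 had the broadest domain, 12140 bp at 14197577 to 14209716 in WT and 12728 bp in KO, widths reached by 4.45% and 4.94% of each list. Both FLAG peaks of HS3ST3B1 lay wholly inside it.

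At HS6ST1, EXT1 and GLCE H3K27me3 sat beside or only partly over the promoter peak. The H3K27me3 peak of HS6ST1 began 179 bp upstream of the TSS in WT and 398 bp upstream in KO and ran away from the gene, to 4332 bp and 3626 bp upstream. Its length was 4154 bp in WT and 3229 bp in KO, a KO to WT ratio of 0.777. The peak of GLCE ran downstream and covered the TSS, with 2222 bp in WT and 2901 bp in KO, a ratio of 1.31. The scores at both genes lay below the list medians, 294 in WT and 310 in KO. At HS6ST1 they were 163 in WT and 247 in KO, and at GLCE 146 and 178. The spread of H3K27me3 width ratios over all peaks was not computed, so these ratios have no background. EXT1 had 3 WT peaks and 4 KO peaks, all 3 WT peaks having a KO counterpart. The extra KO peak at chromosome 8, 119124270 to 119125914, was weak, with a score of 49.5 near the floor of 40, and 63.7% of the 1143 KO-only H3K27me3 peaks scored the same or more. Summed over the 9 windows of 20 kb, H3K27me3 covered 39.7 kb in WT and 41.3 kb in KO. The ratio was 1.04, with 5 genes higher and 2 lower in KO, against a ratio of 0.963 for the whole lists. This KO excess of H3K27me3, 1550 bp, was smaller than the weak extra peak of EXT1, which was 1645 bp wide. With 1 gene left out at a time, the excess ran from 326 bp (without EXT1) to 2475 bp (without HS6ST1). H3K4me3 covered 51.2 kb and 53.0 kb (ratio 1.04), with 4 genes higher and 5 lower, against 0.960. HS3ST3B1 alone gave 1812 bp of the KO excess of H3K4me3, the ratio without it was 1.00, and with lists cut to their 50% highest scores the ratio turned to 0.906.

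**Figure D4:**
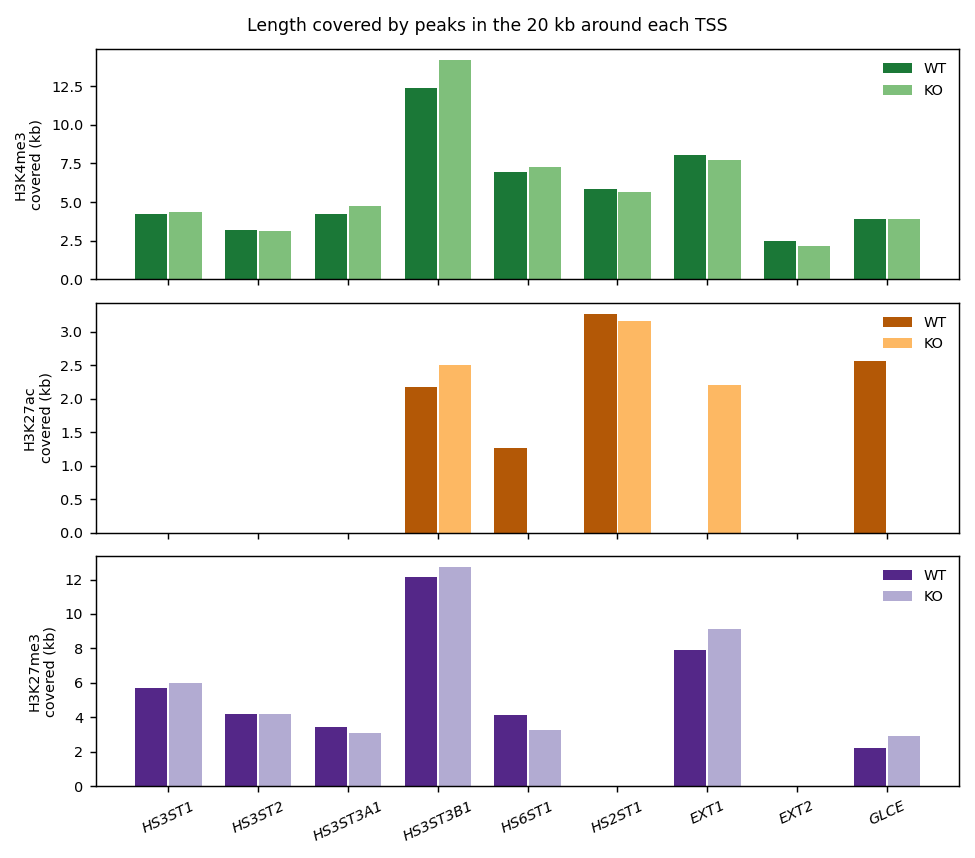
Length in kb covered by peaks of each mark in the 20 kb around each TSS, dark bars WT and light bars KO, 1 library each. H3K4me3 and H3K27me3 have bars in both genotypes or in neither, with lengths that differ at some genes (HS3ST3B1 12358 bp in WT and 14170 bp in KO of H3K4me3). H3K27ac has a bar in 1 genotype alone at HS6ST1 and GLCE (WT) and EXT1 (KO).

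H3K27ac was the mark that differed in presence between genotypes. It lay within 10 kb of 4 genes in WT (HS2ST1, GLCE, HS3ST3B1 and HS6ST1) and of 3 in KO (HS2ST1, EXT1 and HS3ST3B1). At the centres of WT H3K4me3 peaks these shares were 49.8% in WT and 46.6% in KO. By direct overlap, 2 of the 9 WT H3K4me3 peaks over a TSS touched H3K27ac, against 42.6% of all WT H3K4me3 peaks and 54.1% of the strong ones. HS6ST1 and GLCE had a peak in WT and not in KO, a pattern found at 7.84% of the centres. EXT1 had one in KO and not in WT, as did 4.64% of the centres. With lists cut to their 50% highest scores, EXT1 kept its KO peak, but the WT peaks of HS6ST1 and GLCE fell away. With 3 such genes of 9 and 1 library per arm, these are descriptions of single regions. Signal that narrowly missed the calling threshold also counts as absent, and the lists give no read counts to show how near it was.

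HS2ST1, the 2-O-sulfotransferase, had the strongest H3K27ac and no H3K27me3. Its peak at chromosome 1, 87378478 to 87381748 in WT had a score of 636 (top 9% of the list). In KO it ran from 87378390 to 87381553 with a score of 1041 (top 3.45%), and 97.2% of the KO peak was shared with the WT one. The FLAG peak lay 88.9% inside the WT H3K27ac peak. SELENOF, a protein-coding gene on the other strand, reaches into the 10 kb around the HS2ST1 start in the RefSeq gene table, so marks here may belong to either gene. The same table has a non-coding RNA gene near HS3ST2 (LOC107984851) and near HS3ST3B1 (MGC12916) and a pseudogene near GLCE (LOC100421574), to which the same applies. Neighbours of EXT1 were not looked up, because the RefSeq promoter windows held no start for it. EXT2, the other gene without H3K27me3, had H3K4me3 and FLAG alone, and the nearest H3K27ac peak was 28.6 kb away in WT and 28.4 kb in KO.

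EXT1, a subunit of the chain polymerase, had a KO H3K27ac peak over the TSS at chromosome 8, 119122717 to 119124922, with a score of 162. In WT the nearest H3K27ac peak was 31.3 kb away. Of the whole KO list 37.9% scored the same or more, and of the 4365 KO-only H3K27ac peaks 2.18% did. The FLAG peak of EXT1, at 119122181 to 119124837, covered 96.1% of it. H3K4me3 covered it in both genotypes, and H3K27me3 covered 51.4% of it in WT and 79.5% in KO. The weak extra KO H3K27me3 peak, with a score of 49.5, gave 653 bp of the KO cover. The KO H3K27me3 peak with a WT counterpart there covered 1100 bp, against 1134 bp in WT. EXT1 thus carried H3K4me3 and H3K27me3 in WT and all 3 marks in KO.

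GLCE, the epimerase, showed the opposite order. Its WT H3K27ac peak at chromosome 15, 69451552 to 69454115, covered the TSS with a score of 106. Of the whole WT list 54.3% scored the same or more, and of the 4310 WT-only H3K27ac peaks 12.1% did. In KO the nearest H3K27ac peak was 68.5 kb away. The FLAG peak of GLCE, at 69452110 to 69454580, covered 78.2% of the WT peak. H3K4me3 stayed at the TSS with a width of 3878 bp in WT and 3877 bp in KO, so GLCE carried all 3 marks in WT and H3K4me3 with H3K27me3 in KO.

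HS6ST1 and HS3ST3B1 had H3K27ac away from the TSS. The WT peak of HS6ST1, at 129079113 to 129080374, lay 2942 to 4203 bp upstream on a separate H3K4me3 peak that was present in both genotypes. Its score was 51.9, which 84.5% of the whole WT list and 59.4% of the WT-only peaks equalled or exceeded, and the nearest KO peak was 42.9 kb from the TSS. FLAG and WT H3K27me3 covered it entirely. The peak of HS3ST3B1 lay 7123 to 9295 bp downstream in WT (score 176) and 6987 to 9489 bp downstream in KO (score 60.5), on H3K4me3 and clear of both H3K27me3 and FLAG. HS3ST1, HS3ST2 and HS3ST3A1 had no H3K27ac within 10 kb, and the nearest peaks in WT were 362, 44.5 and 25 kb away. In total H3K27ac covered 9.27 kb of the windows in WT and 7.87 kb in KO, a ratio of 0.849 against 1.02 for the whole lists. It rests on single peaks, since the ratio was 1.17 without GLCE and 0.611 without EXT1.

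**Figure D5:**
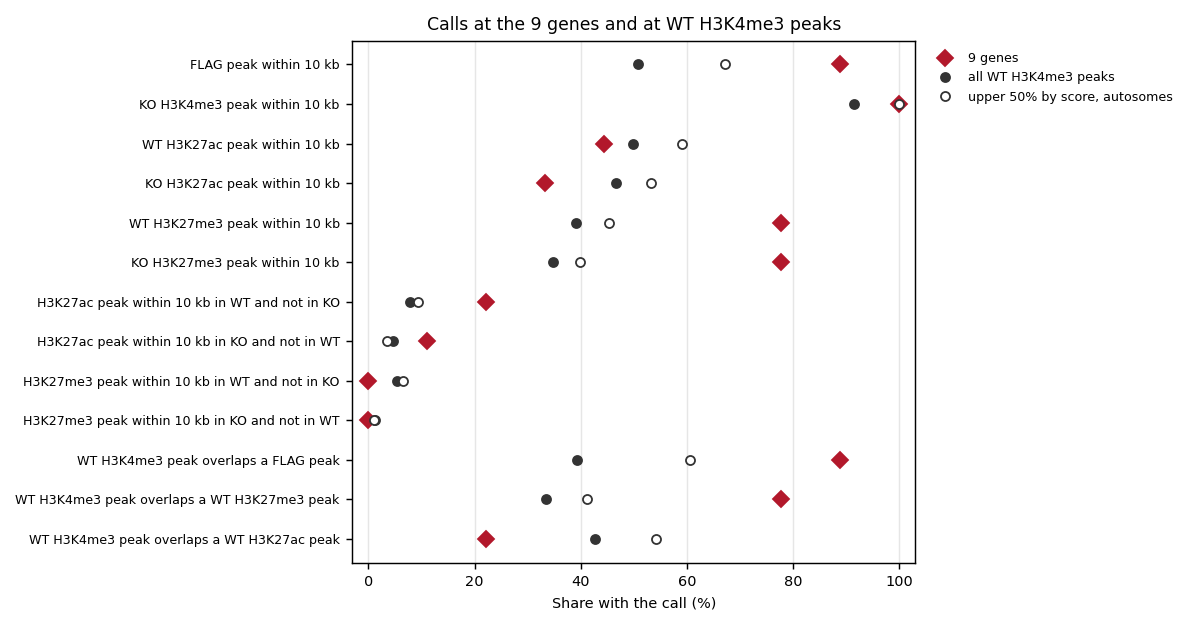
Share (percent) with each call at the 9 genes (diamonds), at all 28660 WT H3K4me3 peaks (filled circles) and at the autosomal peaks of the upper 50% by score (open circles). For the presence of a peak the genes lay above both for FLAG and H3K27me3 and below both for H3K27ac, and the shares of 9 genes move in steps of 1 gene. Neither background was matched for peak width. For WT H3K27ac within 10 kb the genes lay near all WT H3K4me3 peaks, at 4 of 9 against 49.8%.

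Grouped by the marks on the H3K4me3 peak over the TSS, 6 genes carried H3K4me3 with H3K27me3 in WT: the 4 HS3ST genes, HS6ST1 and EXT1. In KO the 6 were the 4 HS3ST genes, HS6ST1 and GLCE. HS2ST1 carried H3K4me3 with H3K27ac and EXT2 carried H3K4me3 alone in both. Of the 9 genes, 7 thus kept their class, and the 2 that changed it, GLCE and EXT1, did so through H3K27ac in opposite directions. How many of all H3K4me3 peaks keep their class was not computed, so the count of 7 is a description without a background. These are peak lists and no RNA was measured here, so nothing is said of the expression of these genes.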

How the data were processed

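ChIP-seq peak lists of WT and ZNF263 KO H1 cells were used, 7 of them, with groups taken from the sample titles. The 4 inputs and the 2 endogenous ZNF263 libraries were not analysed here as lists of their own; the labels of the endogenous libraries point to the FLAG list. Per the submitters' processing notes, Bowtie2, Picard and hg19 were used. The deposited lists hold chromosome, start, end, a peak name that begins with MACS and a score from the authors' peak calling. The sources used here do not give its scale, the caller's version, the inputs or any pooling. Scores begin at 40 for H3K27ac and H3K27me3 and at 50 for H3K4me3 and FLAG. Depth is unknown, so no read-based interval or floor was given.

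The 9 genes and their TSS were chosen with earlier results of these data known, as were the lists and alternatives. All 9 are named, with the peak over the TSS or the nearest one. A gene had a peak when any base of it lay within 10 kb of the TSS, and peaks overlapped when they shared at least 1 bp. Overlap, distance and coverage steps were tested on simulated data against direct counts. No test between genotypes was made, because each arm held 1 library, and no p-value is given. Other genes of the pathway and the ZNF263 deletion itself were not analysed here, for want of hg19 positions. Cell type markers were not used, since no cells were clustered. Promoter windows and strands came from RefSeq (GRCh38.p14). The alternatives were other windows, peak centres, the upper 50% of each list by score, equal numbers of peaks per mark and other overlap rules. Tables were made in python 3.11.15 with scipy 1.17.1 and numpy 2.4.6, plots with matplotlib 3.10.9.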

Additional observations from a re-analysis of the deposited data

How the results depend on the processing

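In all, 133 alternatives were run on 39 results; 125 left the value within 1.5 times of the one reported (and a ratio on its side of 1), 7 moved it and 1 reversed it. Genes with H3K4me3 stayed at 9 in both genotypes under each alternative run, and those with FLAG ran from 7 to 8. Those with H3K27me3 ran from 5 to 7 in both, since the HS6ST1 and GLCE peaks fall outside the 50% highest scores. EXT1 was the 1 gene with H3K27ac in KO and not in WT under each alternative run. With windows of 2 kb, WT H3K27ac was near 2 genes and WT-not-KO H3K27ac was left at 1, GLCE, since the HS6ST1 peak lies farther out. With lists cut to their 50% highest scores, WT H3K27ac was near 2 genes and inside a peak at 1 TSS, and the 1 gene with H3K27ac in WT and not in KO was HS3ST3B1, because the GLCE and HS6ST1 peaks fall below that limit and so does the KO peak of HS3ST3B1. The same shortening turned the KO to WT ratio of H3K4me3 coverage to 0.906, and there the KO peaks away from the TSS at HS3ST3B1 and HS6ST1 were left out while their WT counterparts were not. Asking for 2 motif matches that do not overlap gave 2 genes and 7.70% of all windows. No paired analysis was possible because each group compared held 1 library. Leaving out a replicate was not possible for the same reason.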

Other observations

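Between 10 and 20 kb from the TSS, 3 of the 9 genes had further peaks. HS2ST1 had an H3K27ac peak 17526 to 20675 bp downstream in WT (chromosome 1, 87397861 to 87401010, score 506) and 17965 to 20683 bp downstream in KO (score 595), each with a narrower H3K4me3 peak of low score (162 in WT and 216 in KO) and no FLAG peak. HS6ST1 had 2 more FLAG peaks downstream, at chromosome 2, 129062620 to 129065126 (score 105) and 129058723 to 129060008 (score 68.0), with none of the 3 histone marks. HS3ST3B1 had weak WT peaks of H3K27ac (score 40.9) and H3K4me3 (score 57.5) at 14219419 to 14220918 on chromosome 17, with no KO peak there, and a KO H3K27me3 peak farther on, at 14224370 to 14227153.

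HS3ST3A1 was thus the gene that had bivalent marking and no FLAG peak. For the other 6 genes with H3K27me3 the FLAG peak covered the TSS. The H3K4me3 peak of HS3ST3A1 had the largest KO to WT width ratio of the 9, at 1.12 (above 87.8% of the one-to-one pairs), and HS6ST1, whose H3K4me3 peak over the TSS lay wholly inside a FLAG peak, had 1.10 (above 85.1%). The remaining genes, all with FLAG over the TSS, ran from 0.863 (EXT2) to 1.02 (HS3ST1 and HS3ST3B1). With 1 library per arm, a relation between FLAG and width was not tested.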
